A study of Mus musculus and Acomys cahirinus with 84 samples.

Results

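The genes described here are 10 enzymes that make, interconvert or break down steroids: Hsd3b6, Hsd3b7, Akr1c18, Akr1c14, Hsd11b1, Hsd17b7, Hsd17b11, Srd5a1, Cyp7b1 and Cyp1b1. Each symbol was found once among the 56980 gene identifiers of the mouse count table and once among the 19818 gene names of the A. cahirinus table. The set was chosen by name after values of these data were known, with Hsd3b6 and Akr1c18 selected on their counts in C56BL6 cultures at 12 d, where they had been seen to rise most. Values of the C56BL6 libraries at 12 d are therefore given as a description, with no test.

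The libraries came from primary skin fibroblasts of 3 rodent populations: the African spiny mouse A. cahirinus, wild mice, and mice that the labels spell C56BL6. Each population had 7 groups of 4 libraries, 84 in all. At 24 h and at 12 d there were untreated cultures and cultures given 10 or 20 Gy of gamma irradiation, and at 12 d also untreated cultures that had been passaged. The libraries were made from polyA RNA. All 24 h libraries formed 1 batch and all 12 d libraries another, so the effects of time and of batch cannot be told apart, and comparisons stay within a time. Replicates 1 to 4 carry animal codes that recur in every group of a population, so by their labels the groups hold cultures of the same 4 animals. Genotype, age and sex of the animals and the number of passages are not given in the sources used here.

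Steroids are made from cholesterol and are then switched on and off in target tissues by pairs of oxidising and reducing enzymes. The hydroxysteroid dehydrogenases (HSD) and the aldo-keto reductases of the AKR1C family interchange hydroxyl and keto groups at single carbons of the steroid. Steroid 5α-reductase saturates a double bond of the first ring, and cytochromes P450 add hydroxyl groups. Skin is a target of androgens, oestrogens and glucocorticoids and metabolises all of them locally.

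Total counts were 17.42 to 39.82 M (CPM is counts per M) per mouse library and 25.55 to 52.86 M per A. cahirinus library. A floor of 3 counts corresponds to at most 0.193 CPM in mice and 0.116 CPM in A. cahirinus, for counting error only. All 7 fibroblast markers had a mean of at least 1 CPM in both tables, and their summed level was 7604 to 83325 CPM over the mouse libraries and 16659 to 32530 CPM over those of A. cahirinus. The 12 d libraries labelled wild replicate 1 went against their label, as seen by correlation in untreated cultures only. Over 12006 genes the deviations of the untreated 12 d library correlated with those of untreated wild replicate 4 at 24 h (r = 0.68). They did not with those of untreated wild replicate 1 at 24 h (r = -0.24), whereas numbers 2, 3 and 4 matched their own (r = 0.65, 0.77 and 0.6). The 12 d libraries of wild replicates 1 and 4 were told apart by 0 genes expressed throughout one and absent from the other, against 31 at 24 h and 10 to 33 for the other pairs at 12 d. They may therefore not be 2 animals, in which case p-values over 4 wild libraries at 12 d are too small. Results in wild mice at 12 d are given with and without the libraries labelled replicate 1, which would also count such an animal once. The library of wild mice at 24 h and 10 Gy labelled replicate 1 had counts in 17843 genes, against at least 20635 in every other wild library at 24 h. Markers of other cell types were present: the sum of 7 keratinocyte markers reached 937 CPM in C56BL6 replicate 1, and that of 5 muscle markers 7572 CPM in A. cahirinus. In mice the muscle sum reached 1352 CPM, in wild replicate 1 at 24 h and 10 Gy.

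Levels of different genes were compared as RPKM (CPM per kilobase of exon). In the 28 C56BL6 libraries, Cyp1b1 had the highest median, 73.7 RPKM (36.9 to 218), followed by Hsd3b6 with 38.4 RPKM (0 to 233), Hsd17b11 with 8.67 RPKM (6.51 to 21.9) and Hsd17b7 with 7.46 RPKM (5.04 to 10.3). The other measured members had medians between 0.2 RPKM for Hsd11b1 and 1.09 RPKM for Akr1c14. In wild mice Cyp1b1 again led with 58.7 RPKM (24 to 80.9), Hsd17b11 followed with 12.1 RPKM (8.5 to 21.7), and Hsd3b6 had a median of 1.37 RPKM (0 to 35.5). The order was another one in A. cahirinus, where Hsd17b11 had 13.8 RPKM (9.07 to 37.5), Hsd3b7 9.77 RPKM (8.25 to 15.2) and Cyp7b1 3.09 RPKM (2.18 to 4.69), while Cyp1b1 had 0.0484 RPKM (0 to 1.02). Most of these ranges overlap between neighbours in the order, and gene models of the mouse and A. cahirinus tables differ, so levels between species were not tested.

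Hsd3b6 is a mouse 3β-hydroxysteroid dehydrogenase, an enzyme that turns hydroxylated precursors such as pregnenolone into progesterone-type steroids. Its gene lies on chromosome 3, from base 98712820 to 98721759 on the minus strand of GRCm39. Akr1c18 is a 20α-hydroxysteroid dehydrogenase, which inactivates progesterone, and lies on chromosome 13, from 4182614 to 4200653 on the minus strand. All of their annotated exon bases in the mouse table were free of other genes. The 250 bases before each RefSeq start are shown because these are the members with the largest fold differences after irradiation in C56BL6 cultures. They come from RefSeq on GRCm38.p6, at chr3:98814444-98814693 and chr13:4150647-4150896, minus strand, written in the direction of transcription.
Hsd3b6: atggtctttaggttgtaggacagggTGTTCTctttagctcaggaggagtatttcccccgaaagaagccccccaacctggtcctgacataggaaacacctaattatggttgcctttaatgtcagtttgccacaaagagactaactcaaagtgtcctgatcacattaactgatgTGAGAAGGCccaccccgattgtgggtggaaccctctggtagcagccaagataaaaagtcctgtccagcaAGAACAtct
Akr1c18: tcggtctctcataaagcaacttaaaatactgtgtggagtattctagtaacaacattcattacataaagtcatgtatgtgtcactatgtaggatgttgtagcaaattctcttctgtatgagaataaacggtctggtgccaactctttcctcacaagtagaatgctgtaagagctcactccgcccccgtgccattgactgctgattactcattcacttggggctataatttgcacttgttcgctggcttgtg
Capitals mark the letters found by a search on both strands for GCGTG (the core bound by the aryl hydrocarbon receptor), CAAGGTCA (bound by SF-1), TGANTCA (AP-1), AGAACA (part of a steroid receptor site) and TGANNNNGC (the antioxidant response core). The Hsd3b6 window held AGAACA on each strand, as TGTTCT and AGAACA, and TGANNNNGC as TGAGAAGGC. The Akr1c18 window held none of them, and the 2 windows had 47.2% and 41.6% GC. Among 32851 RefSeq windows of this length, 16.1% held AGAACA, 35.2% TGANNNNGC, 28.2% GCGTG, 6.75% TGANTCA and 1.33% CAAGGTCA. Of the 10 members, 9 were in the promoter table, and GCGTG occurred in 5 of them: Hsd11b1, Hsd17b7, Hsd17b11, Srd5a1 and Cyp1b1.

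Hsd3b6 differed widely between animals, and at 12 d each irradiated mouse library was above the untreated library of the same replicate number, in both populations. In C56BL6 cultures at 24 h the untreated libraries of replicates 1 to 4 had 1.28, 41.9, 84.0 and 78.5 CPM, those at 10 Gy 1.13, 29.7, 82.8 and 76.6 CPM, and those at 20 Gy 1.28, 32.6, 68.4 and 70.5 CPM. Replicate 1 was the lowest in every C56BL6 group. In bulk samples fewer cells of a type and less RNA per cell cannot be told apart. At 12 d the untreated C56BL6 libraries had 0, 12.4, 5.75 and 10.4 CPM, the passaged 1.38, 70.1, 105 and 126 CPM, those at 10 Gy 8.29, 237, 254 and 343 CPM, and those at 20 Gy 10.4, 292, 333 and 421 CPM. Group means at 12 d were 7.14 ± 5.52, 75.5 ± 54.5, 210.3 ± 142 and 264.2 ± 177 CPM (SD, n = 4) in that order, and within each animal the order was the same. The fitted log2 difference from untreated was 5.22 ± 1.37 (SE) at 20 Gy, 37.2-fold higher, 4.89 ± 1.34 at 10 Gy and 3.40 ± 1.37 in passaged cultures. Set against passaged cultures, 20 Gy was 1.79 ± 1.20 higher, and the groups overlapped through replicate 1. Of the markers of steroidogenic glands only Star had a mean of at least 1 CPM in mice. For replicates 1 to 4 of C56BL6 cultures at 12 d their sums were 10.5, 3.08, 4.96 and 2.68 CPM untreated and 29.1, 4.66, 7.53 and 5.51 CPM at 20 Gy. Replicate 1, the lowest for Hsd3b6, had the highest sum in both groups. Wild libraries at 12 d had sums of 2.38, 5.49, 2.43 and 3.41 CPM untreated and 4.65, 8.65, 2.56 and 10.2 CPM at 20 Gy. The passaged cultures, with 1.81 to 7.65 CPM in C56BL6 and 1.4 to 1.85 CPM in wild mice, had lower sums than the untreated library of the same number throughout. Hsd3b6 was higher in the passaged library for each number. The part of cells with these markers in the result was not tested.

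**Figure D1:**
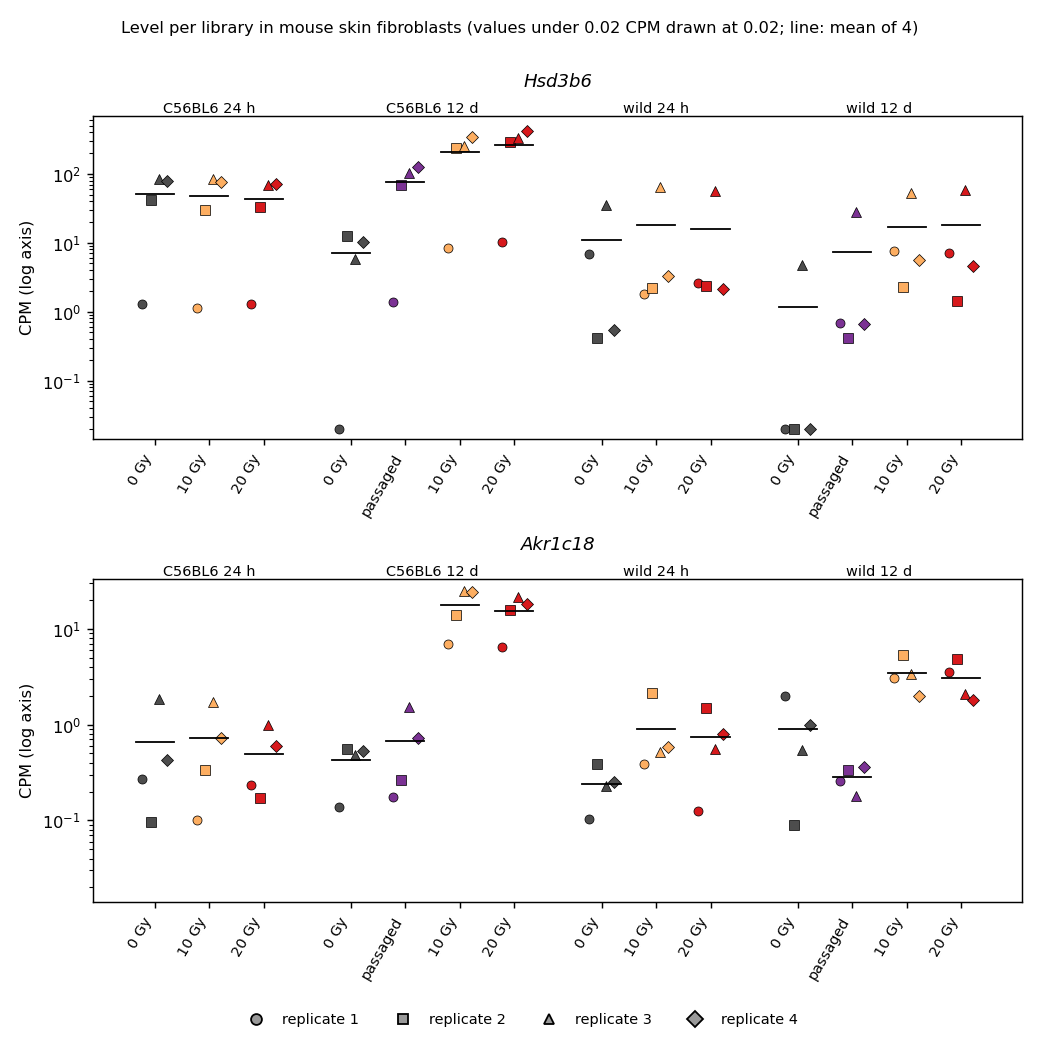
Hsd3b6 and Akr1c18 in every mouse library, in CPM on a log axis, by group, with the marker shape giving the replicate number and the line the mean of 4 libraries; values under 0.02 CPM are drawn at 0.02. For Hsd3b6, C56BL6 replicate 1 is the lowest of every C56BL6 group and wild replicate 3 the highest of every wild group, whereas all 8 irradiated C56BL6 libraries at 12 d lie between 6.49 and 25.1 CPM for Akr1c18, above all untreated and passaged ones.

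In wild mice most of the Hsd3b6 counts came from 1 animal. At 12 d the untreated libraries had 0, 0, 4.69 and 0 CPM, the passaged 0.693, 0.408, 27.7 and 0.661 CPM, those at 10 Gy 7.64, 2.26, 52.7 and 5.60 CPM, and those at 20 Gy 7.12, 1.42, 58.3 and 4.64 CPM. Replicate 3 was the highest in every group at 12 d, and each irradiated library was above the untreated and the passaged library of its own number. Without pairing, the difference between 20 Gy and untreated cultures was 3.92 ± 1.94 (log2, SE) and did not pass the test (edgeR quasi-likelihood, Benjamini-Hochberg adjusted p = 0.423), nor did that at 10 Gy (3.83 ± 1.87, adjusted p = 0.46). With libraries paired by number in the block, the adjusted p was 0.00733 at 20 Gy (4.72 ± 0.63), 0.00717 at 10 Gy (4.72 ± 0.65) and 0.0108 in passaged cultures (3.22 ± 0.58, without it 2.61 ± 2.11, adjusted p = 0.47), higher for 4 of 4 numbers in each. Hsd3b6 passed the filter on low counts in these 3 comparisons through the irradiated or passaged group, with 1 untreated library above it, so it had to differ there and the p-values are given as a description. With the block it was higher at 20 Gy than in passaged cultures (2.07 ± 0.35, adjusted p = 0.00346, without it 1.32 ± 1.59, adjusted p = 0.658). Without a block, leaving out replicate 3 gave an adjusted p of 0.0189 in passaged against untreated cultures and a call at 20 Gy against passaged cultures (2.91, adjusted p = 0.0291). In the first of these fits every remaining untreated library had a count of 0, so Hsd3b6 had to differ and its p-value is a description. Without the 12 d libraries labelled wild replicate 1 the 4 adjusted p with the block were 0.0382, 0.0207, 0.0381 and 0.0103. Since 3 of the 4 untreated libraries had a count of 0, the fitted values against untreated cultures depend on the prior count and are no fold. Of the muscle markers only Des had a mean of at least 1 CPM in mice. Their sums in the untreated wild 12 d libraries were 3.06, 0.982, 133 and 5.31 CPM. The passaged libraries had 3.38, 1.85, 436 and 4.27 CPM, and those at 20 Gy 7.01, 1.78, 176 and 9.16 CPM. The part of cells with these markers in the result was not tested.

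At 24 h wild libraries had 6.80, 0.415, 35.8 and 0.535 CPM of Hsd3b6 untreated, 1.80, 2.22, 64 and 3.35 CPM at 10 Gy and 2.57, 2.37, 57.1 and 2.16 CPM at 20 Gy. Replicate 3 was again the highest of each group, and the level in replicate 1 was lower in both irradiated libraries than in the untreated one. The muscle marker sums were 935, 3.13, 401 and 3.24 CPM untreated and 776, 4.33, 316 and 8.31 CPM at 20 Gy. They were highest in replicate 1, and their part in the result was not tested. For Hsd3b6 neither dose passed the test in wild mice, with or without the block. In C56BL6 cultures 20 Gy at 24 h did not pass without the block (-0.25 ± 1.12, adjusted p = 0.975), whereas with it Hsd3b6 fell by 0.26 ± 0.06 on the log2 scale (adjusted p = 0.00964). A. cahirinus libraries held at most 8 counts of Hsd3b6, 0.17 CPM, and 15 of 28 held none. Only 272 of the 1982 exon bases of its A. cahirinus model (13.7%) were free of other genes, mainly Hsd3b2 and Hsd3b3, so a low value there is uncertain. The other HSD3B genes were low in mice: Hsd3b1 reached 2.46 CPM at most, in wild replicate 3 at 24 h and 20 Gy, and the rest at most 7 counts in a library.

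Over the 56 mouse libraries, the 5 genes whose log2 CPM followed Hsd3b6 most closely, among 12936 genes with a mean of at least 1 CPM, were Fam174b (Pearson r = 0.866), Pafah2 (0.866), Gstm7 (0.854), Clca3a1 (0.841) and Mfn2 (0.838). Akr1c18 ranked 991st in likeness to Hsd3b6 (r = 0.469) and Hsd17b7 542nd (r = 0.553). Those closest to Akr1c18 were Clba1 (0.821), Oas2 (0.808), Prex1 (0.799), Abca4 (0.799) and Rcan1 (0.793). These libraries share animals, batches and depth, and the correlations are a description.

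Akr1c18 was low in all unirradiated mouse cultures, and at 12 d each irradiated library was above the untreated library of its replicate number. In wild mice the untreated and 20 Gy groups overlapped, and neither dose passed the test against untreated cultures. In C56BL6 cultures at 12 d the untreated libraries had 0.137, 0.559, 0.477 and 0.536 CPM, the passaged 0.176, 0.263, 1.51 and 0.719 CPM, those at 10 Gy 6.87, 13.8, 25.1 and 24.5 CPM, and those at 20 Gy 6.49, 15.6, 21.7 and 18 CPM. The irradiated and unirradiated groups did not overlap, and 10 and 20 Gy overlapped throughout. The fitted difference from untreated cultures was 5.17 ± 0.52 (log2, SE) at 20 Gy, 36-fold higher, 5.36 ± 0.56 at 10 Gy and 0.63 ± 0.71 in passaged cultures. Set against passaged cultures, 20 Gy was 4.54 ± 0.68 higher. At 24 h no C56BL6 library exceeded 1.86 CPM, and neither dose passed the test.

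In wild mice at 12 d Akr1c18 had 1.97, 0.0893, 0.540 and 0.984 CPM in untreated libraries, 0.26, 0.334, 0.179 and 0.361 CPM in passaged, 3.05, 5.39, 3.34 and 1.98 CPM at 10 Gy, and 3.50, 4.82, 2.08 and 1.83 CPM at 20 Gy. Every irradiated library was above every passaged library, and above the untreated library of its own number. The passaged libraries held 5 to 12 counts, with 1 of them above the filter on low counts, which the gene passed through the 20 Gy group. It therefore had to differ, and the fitted difference of 3.43 ± 0.43 (log2, SE, edgeR, adjusted p = 0.00663, with the block 3.35 ± 0.32, adjusted p = 0.000356) is a description. Without a block it did not pass when replicate 1 (3.31, adjusted p = 0.0891) or replicate 4 (3.76, adjusted p = 0.0632) was left out, and with the block and no wild replicate 1 it was 3.20 (adjusted p = 0.00282). Against untreated cultures it did not pass at 20 Gy (1.81 ± 0.75, adjusted p = 0.344, with the block 1.91 ± 0.64, adjusted p = 0.0893) or at 10 Gy (1.96 ± 0.74, adjusted p = 0.339, with the block adjusted p = 0.0909), although it was higher for 4 of 4 replicate numbers at both doses.

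At 24 h wild libraries had 0.103, 0.383, 0.229 and 0.252 CPM of Akr1c18 untreated, 0.387, 2.16, 0.512 and 0.580 CPM at 10 Gy and 0.124, 1.48, 0.562 and 0.796 CPM at 20 Gy. Each irradiated library was above the untreated one of its animal, though in replicate 1 only by 6 and 4 counts at 10 and 20 Gy against 3. With the block the edgeR difference at 20 Gy had an adjusted p of 0.0227 (1.55 ± 0.38), without it 0.85 (1.62 ± 0.71). The gene passed the filter on low counts through 3 irradiated libraries and 1 untreated one. A higher irradiated value was thereby favoured, and the p-value with the block is given as a description. At 10 Gy the difference passed neither way (1.93 ± 0.67, adjusted p = 0.941, with the block 1.74 ± 0.41, adjusted p = 0.27). In A. cahirinus the count was 0 in all 28 libraries. There 66 of 1228 exon bases (5.37%) were free of the overlapping gene Akr1cl, so the 0 says little of expression. Akr1c13 and Akr1c12 reached at most 1.52 and 0.686 CPM in wild mice, and Akr1c19 had a median of 3.07 CPM in A. cahirinus.

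Akr1c14 is a 3α-hydroxysteroid dehydrogenase, which reduces 5α-reduced androgens and progestins, and 92.8% of its exon bases were free of other genes. Its level separated single animals. At 12 d C56BL6 libraries had 419, 10.8, 3.78 and 4.38 CPM untreated, 18.4, 2.80, 1.55 and 1.03 CPM passaged, 132, 6.71, 3.51 and 2.94 CPM at 10 Gy and 100.8, 7.47, 3.56 and 3.78 CPM at 20 Gy. Replicate 1 was the highest of every C56BL6 group, at 24 h as well (7.70 to 18.9 CPM against 0.747 to 2.44 CPM in the other animals). The keratinocyte marker sum of that animal was 243 to 937 CPM over its 7 libraries, against 1.3 to 5.32 CPM in the other C56BL6 libraries, and its part in the result was not tested.

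In wild mice at 12 d Akr1c14 was 277, 1.96, 5.09 and 216 CPM untreated, 16.3, 2.86, 0.789 and 12.2 CPM passaged, 67.2, 4.05, 1.57 and 59.3 CPM at 10 Gy and 53, 4.03, 1.33 and 38.4 CPM at 20 Gy. Replicates 1 and 4 were the high ones of every 12 d group, while at 24 h replicate 4 had 12.8 to 15.1 CPM and replicate 1 only 0.0644 to 0.527 CPM. Of the adipocyte markers only Cfd had a mean of at least 1 CPM in mice. Their sums in the untreated wild 12 d libraries were 16 and 25.3 CPM in replicates 1 and 4 and 0.0893 and 0.169 CPM in the other ones. In the untreated C56BL6 libraries at 12 d they were 14.6, 30.4, 45.3 and 17.5 CPM. The lowest was replicate 1, which had the most Akr1c14. The keratinocyte sums of the untreated wild 12 d libraries were 6.67, 2.5, 1.99 and 5.52 CPM. The part of such cells in the result was not tested. In passaged cultures the difference from untreated was -3.95 ± 1.63 (adjusted p = 0.157). With the block Akr1c14 fell by 2.97 (adjusted p = 0.0406), a call that was lost without the libraries labelled wild replicate 1 (-2.35, adjusted p = 0.17). It was higher at 20 Gy than in passaged cultures with the block (1.32, adjusted p = 0.00312, without those libraries 1.07, adjusted p = 0.0248) and not without it (1.62 ± 1.23, adjusted p = 0.451). In C56BL6 cultures at 24 h it fell at 20 Gy with the block by 0.87 ± 0.18 (adjusted p = 0.00404, without it -1.12 ± 1.12, adjusted p = 0.828). A. cahirinus libraries held at most 6 counts.

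**Figure D2:**
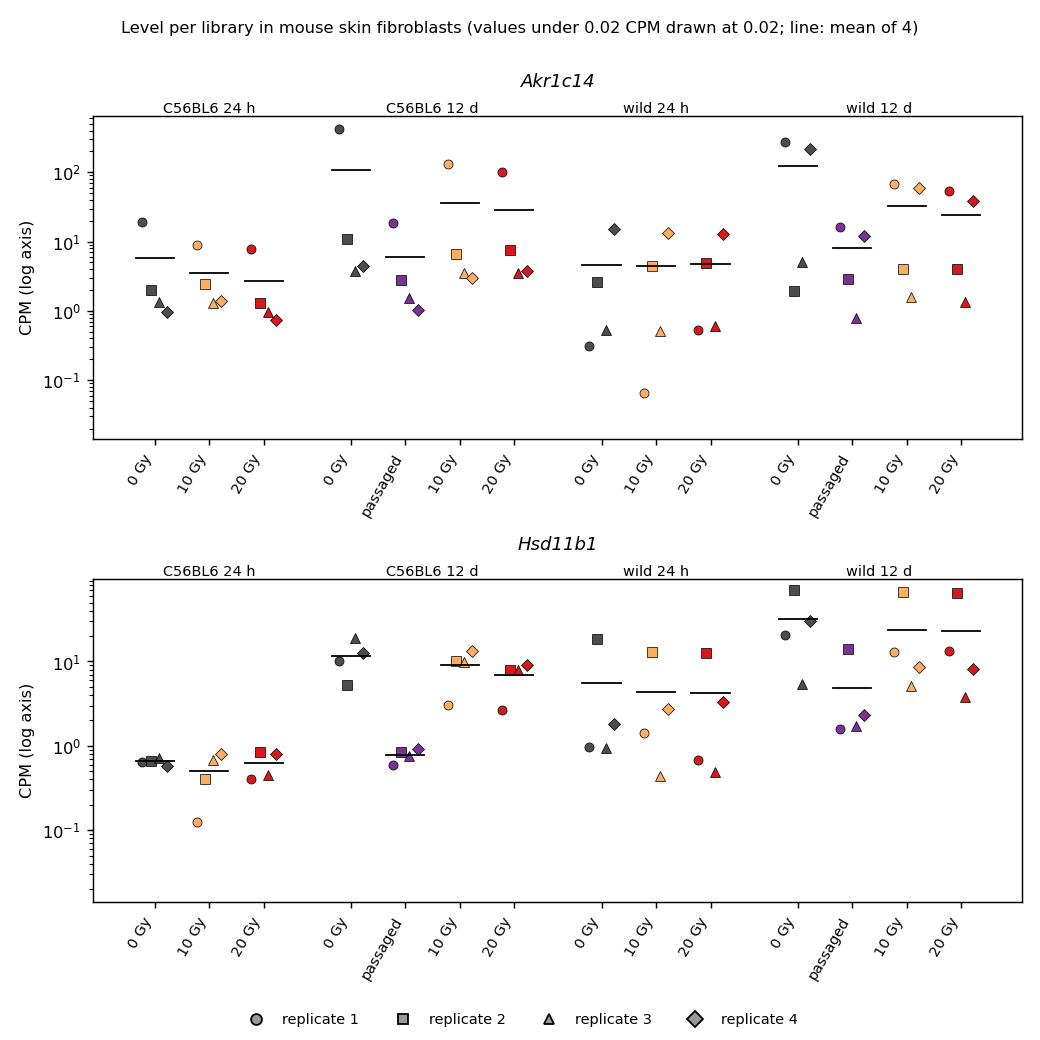
Akr1c14 and Hsd11b1 in every mouse library, in CPM on a log axis, by group, with the marker shape giving the replicate number and the line the mean of 4. For Akr1c14, C56BL6 replicate 1 stands apart in every group (419 CPM in the untreated culture at 12 d), and for Hsd11b1, wild replicate 2 is the highest (65.5 to 69.7 CPM in untreated and irradiated cultures at 12 d).

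Hsd11b1 regenerates active glucocorticoid from its inactive keto form, fed with cofactor by the enzyme H6pd. In C56BL6 cultures at 12 d it had 10.1, 5.21, 19.1 and 12.7 CPM untreated, 0.586, 0.846, 0.755 and 0.925 CPM passaged, 3.06, 10.3, 9.77 and 13.1 CPM at 10 Gy and 2.64, 7.84, 7.97 and 8.99 CPM at 20 Gy. The passaged group lay under all other 12 d groups without overlap, with a fitted difference of -3.90 ± 0.40 from untreated, and 20 Gy was 3.11 ± 0.39 above passaged cultures. The summed adipocyte markers of these C56BL6 groups were 14.6 to 45.3 CPM untreated, 0.175 to 0.827 CPM passaged, 0.544 to 3.45 CPM at 10 Gy and 0.696 to 2.15 CPM at 20 Gy, and their part in the result was not tested. At 24 h C56BL6 libraries had 0.126 to 0.855 CPM. In wild mice at 12 d the values were 20.7, 69.7, 5.46 and 30.1 CPM untreated, 1.60, 13.9, 1.72 and 2.31 CPM passaged, 13.1, 67.2, 5.07 and 8.60 CPM at 10 Gy and 13.2, 65.5, 3.75 and 8.24 CPM at 20 Gy. Within each replicate number the passaged library was the lowest, and the libraries of a group differed so much that the groups overlapped. The adipocyte marker sums of the untreated wild libraries are given above with Akr1c14, and those of the passaged ones were 3.08, 0.111, 0.0358 and 0.812 CPM. Without the block neither passaged against untreated (-2.68 ± 0.98, adjusted p = 0.118) nor 20 Gy against passaged cultures (2.23 ± 1.08, adjusted p = 0.233) passed. With it Hsd11b1 fell by 2.84 ± 0.37 (adjusted p = 0.00449) and rose by 2.11 ± 0.26 (adjusted p = 0.00083), and without the libraries labelled wild replicate 1 both calls held (adjusted p = 0.0262 and 0.00237).

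A. cahirinus had 2.40, 6.97, 1.52 and 2.05 CPM of Hsd11b1 in untreated cultures at 12 d, 0.811, 3.91, 0.453 and 3.06 CPM in passaged, 3.10, 13.4, 1.80 and 4.71 CPM at 10 Gy and 6.14, 12.1, 3.14 and 5.97 CPM at 20 Gy. Each irradiated library was above the untreated library of its animal. The difference at 20 Gy passed with the block (1.19 ± 0.16, adjusted p = 0.00132) and not without it (1.09 ± 0.56, adjusted p = 0.166), unless replicate 2 was left out (1.37, adjusted p = 0.00682). At 10 Gy it passed with the block (0.74, adjusted p = 0.0257) and not without it (0.85 ± 0.72, adjusted p = 0.533). For 20 Gy against passaged cultures it again passed with the block or without replicate 2 (with the block 1.93 ± 0.33, adjusted p = 0.00223, without it 1.75 ± 0.68, adjusted p = 0.067, and without replicate 2 adjusted p = 0.0261). In wild mice the corresponding difference at 20 Gy was -0.44, lower for 4 of 4 replicate numbers. The 2 species' changes at 20 Gy differed by 1.52 ± 1.20 without the block (adjusted p = 0.536) and by 1.92 ± 0.36 with it (adjusted p = 0.00464, without the libraries labelled wild replicate 1 1.97, adjusted p = 0.0137).

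Hsd17b7 works both as a 17β-hydroxysteroid dehydrogenase and as the 3-ketosteroid reductase of cholesterol synthesis. In A. cahirinus at 12 d it had 3.45, 5.36, 3.55 and 3.89 CPM untreated, 5.29, 7.54, 4.81 and 3.87 CPM passaged, 7.83, 8.84, 6.32 and 5.98 CPM at 10 Gy and 8.94, 10.5, 8.59 and 8.87 CPM at 20 Gy. Both irradiated groups lay above the untreated group without overlap, with means of 4.07 ± 0.885 untreated, 7.24 ± 1.33 at 10 Gy and 9.24 ± 0.889 CPM at 20 Gy (SD, n = 4). Hsd17b7 rose 2.3-fold at 20 Gy (log2 1.20 ± 0.17, adjusted p = 0.00154) and was higher at 20 Gy than in passaged cultures (0.80 ± 0.21, adjusted p = 0.0147). The latter call was lost without replicate 1 (adjusted p = 0.101), 3 (0.0831) or 4 (0.0617). At 10 Gy the difference of 0.84 ± 0.22 passed with the block (adjusted p = 0.00479) and not without it (adjusted p = 0.0816), unless replicate 2 was left out (adjusted p = 0.0203). The summed muscle markers of A. cahirinus at 12 d were 5294, 2300, 4960 and 5176 CPM untreated and 7466, 1165, 7143 and 7572 CPM at 20 Gy, higher in 3 of 4 animals, and their part in these results was not tested.

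C56BL6 libraries had 25.7 to 52.6 CPM of Hsd17b7 over all groups, and at 12 d the difference at 20 Gy was 0.15 ± 0.20. In wild mice at 12 d it had 15.9, 9.82, 19 and 16.1 CPM untreated and 30.9, 19.5, 25.7 and 27.6 CPM passaged, which do not overlap. This difference passed with the block (0.79, adjusted p = 0.00768, without the libraries labelled wild replicate 1 0.73, adjusted p = 0.0478) and just missed without it (0.77 ± 0.23, adjusted p = 0.0665). At 24 h the A. cahirinus libraries had 4.85 to 6.71 CPM untreated and 6.51 to 8.30 CPM at 10 Gy, a difference that passed with the block (0.33 ± 0.10, adjusted p = 0.0209, without it 0.32, adjusted p = 0.36). At 20 Gy they had 6.82, 7.59, 6.90 and 7.16 CPM, above all untreated ones, and the difference did not pass (with the block 0.33 ± 0.11, adjusted p = 0.0522).

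**Figure D3:**
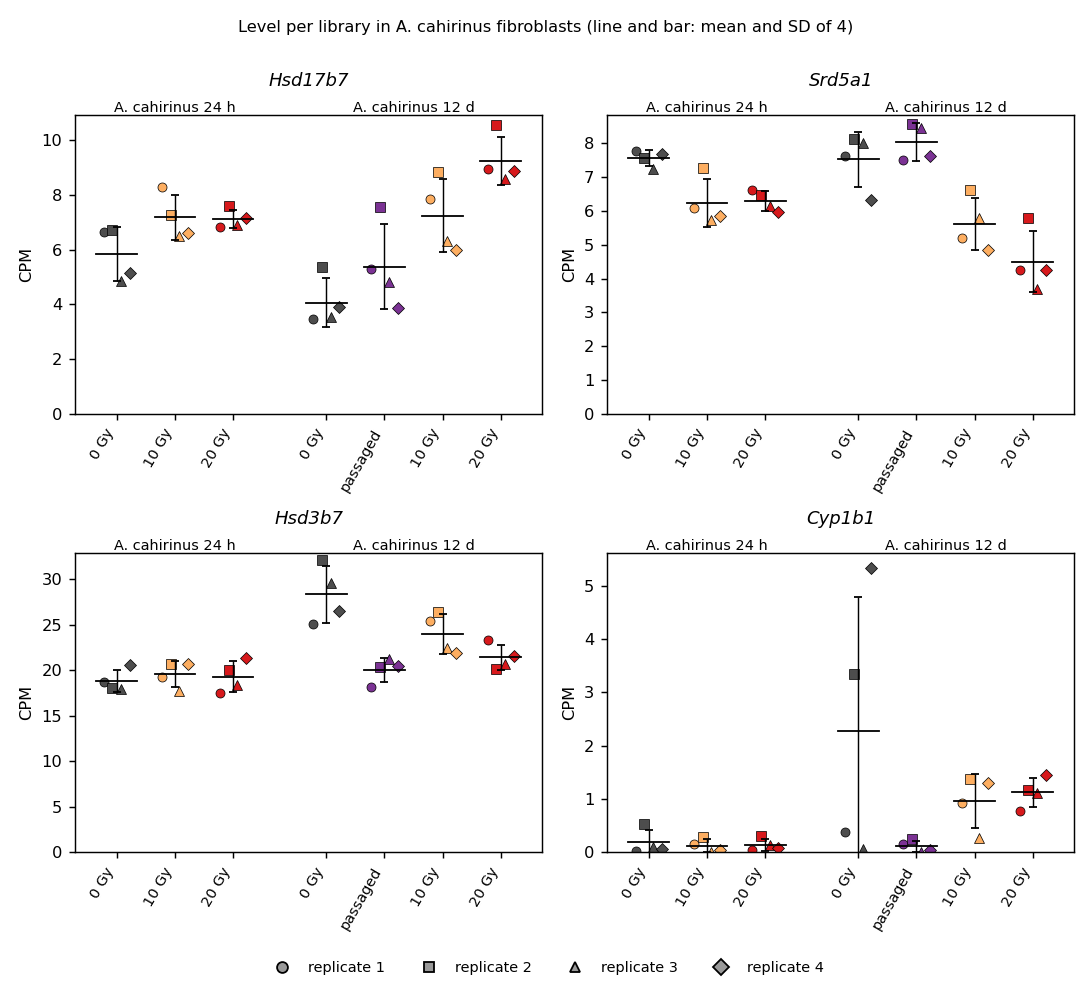
Hsd17b7, Srd5a1, Hsd3b7 and Cyp1b1 in the A. cahirinus libraries, in CPM on a linear axis from 0, by group, with points for libraries and the mean ± SD of 4. At 12 d Hsd17b7 goes from 4.07 CPM in untreated cultures to 9.24 CPM at 20 Gy, and Srd5a1 from 7.53 to 4.5 CPM.

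Hsd17b11, an enzyme of lipid droplets that oxidises androstanediol, was lower in passaged than in untreated mouse cultures at 12 d. At 12 d the untreated libraries had 59.3, 62.9, 67.4 and 71.5 CPM in C56BL6 cultures and 61.7, 70.9, 67.9 and 51.1 CPM in wild mice, and the passaged had 23.8, 27.4, 29.2 and 30 CPM and 32, 33.9, 35.2 and 27.7 CPM. The groups did not overlap in either population. The adipocyte marker sums given above with Hsd11b1 were lower in the same passaged C56BL6 cultures and for 3 of 4 numbers in wild mice, and their part in the result was not tested. In wild mice Hsd17b11 fell in passaged cultures by 0.97 ± 0.13 (log2, SE, adjusted p = 0.012, with the block 0.00209), a call that was lost without a block when replicate 1 (adjusted p = 0.162) or 4 (0.0858) was left out, and that held with the block and no wild replicate 1 (adjusted p = 0.0199). At 20 Gy wild libraries had 41.1, 62.6, 48.8 and 39.6 CPM and C56BL6 libraries 44.9, 47.4, 43.5 and 44.2 CPM, with means (48 ± 10.6 and 45 ± 1.70 CPM, SD, n = 4) between those of the untreated and passaged groups. In wild mice 20 Gy was above passaged cultures by 0.61 ± 0.16 (adjusted p = 0.0495), which did not pass when any 1 replicate number was left out (adjusted p 0.0944 to 0.18) and passed with the block (adjusted p = 0.00369, without the libraries labelled wild replicate 1 0.0104).

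Against untreated wild cultures Hsd17b11 was lower at 20 Gy (-0.35 ± 0.18, adjusted p = 0.43) and 10 Gy (-0.38 ± 0.16, adjusted p = 0.377) without passing. With the block both passed (adjusted p = 0.0431 and 0.0417), and neither did once the libraries labelled wild replicate 1 were out (adjusted p = 0.203 and 0.226). The sign was the other one at 24 h, where wild libraries had 32.5, 36.3, 29.1 and 29.5 CPM untreated and 38.4, 40.2, 38.3 and 38.3 CPM at 20 Gy (with the block 0.31 ± 0.09, adjusted p = 0.0399, without it 0.30 ± 0.10, adjusted p = 0.723). In A. cahirinus the difference at 24 h likewise passed only with the block, at 20 Gy (0.35 ± 0.08, adjusted p = 0.00817, without it 0.33 ± 0.24, adjusted p = 0.546) and at 10 Gy (0.33 ± 0.07, adjusted p = 0.00253, without it adjusted p = 0.606). At 12 d A. cahirinus had 29.7, 46.4, 26.4 and 31.7 CPM untreated, 20.8, 41.5, 22.3 and 20.1 CPM passaged and 34.9, 67.5, 25 and 23.1 CPM at 20 Gy. Replicate 2 was the highest there in every group. With the block Hsd17b11 fell in passaged cultures (-0.41 ± 0.09, adjusted p = 0.00611, without it -0.38 ± 0.29, adjusted p = 0.365, and without replicate 2 adjusted p = 0.00438), and 20 Gy was above passaged (0.48 ± 0.12, adjusted p = 0.0133, without it 0.55 ± 0.39, adjusted p = 0.279, and without replicate 2 adjusted p = 0.0407). The summed muscle markers of replicate 2 were the lowest of each A. cahirinus group, and their part in the result was not tested.

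Srd5a1, the 5α-reductase that turns testosterone into dihydrotestosterone, had 7.62, 8.14, 8 and 6.34 CPM in untreated A. cahirinus cultures at 12 d, 7.50, 8.59, 8.44 and 7.64 CPM in passaged, 5.21, 6.63, 5.78 and 4.86 CPM at 10 Gy and 4.27, 5.78, 3.70 and 4.27 CPM at 20 Gy. The 20 Gy group lay under the untreated and passaged groups without overlap. Srd5a1 fell at 20 Gy against untreated cultures by 0.72 ± 0.17 (log2, SE, adjusted p = 0.0133) and was lower than in passaged cultures (-0.81 ± 0.16, adjusted p = 0.00492). The first call was lost without replicate 1 or 3 (adjusted p = 0.125 for each), the second without replicate 1 (adjusted p = 0.0526), and both passed with the block (adjusted p = 0.00546 and 0.00232). At 10 Gy the difference of -0.41 ± 0.16 passed only with the block (adjusted p = 0.0304, without it 0.186). At 24 h it was 7.79, 7.56, 7.23 and 7.68 CPM untreated and 6.62, 6.49, 6.14 and 5.98 CPM at 20 Gy, groups that do not overlap and whose difference did not pass (-0.24 ± 0.10, adjusted p = 0.288, with the block 0.0866). C56BL6 libraries had 1.56 to 4.80 CPM and wild libraries 0.357 to 2.26 CPM of Srd5a1, with 83.6% of the mouse exon bases free of other genes. In wild mice it had 0.549, 0.357, 0.674 and 0.808 CPM untreated and 0.997, 0.927, 1.43 and 1.41 CPM passaged at 12 d, a difference that passed with the block (1.01, adjusted p = 0.0252) but not without it (0.99 ± 0.32, adjusted p = 0.0881) or without the libraries labelled wild replicate 1 (adjusted p = 0.0938).

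Cyp7b1, the oxysterol 7α-hydroxylase, was high in untreated mouse cultures at 12 d and low in every treated or passaged one. C56BL6 libraries had 5.59, 9.82, 22.7 and 23.9 CPM untreated, 0.498, 0.496, 1.19 and 0.788 CPM passaged, 1.05, 1.56, 2.30 and 2.68 CPM at 10 Gy and 0.668, 1.46, 2.21 and 2.61 CPM at 20 Gy. No treated or passaged library reached the lowest untreated one, with fitted differences of -4.38 ± 0.57 in passaged cultures, -3.01 ± 0.52 at 10 Gy and -3.14 ± 0.58 at 20 Gy. Wild libraries had 30.7, 19.7, 14.6 and 32.5 CPM untreated, 5.37, 3.63, 2.72 and 5.95 CPM passaged, 7.82, 6.98, 2.42 and 11.2 CPM at 10 Gy and 4.65, 5.78, 1.56 and 5.57 CPM at 20 Gy, again without overlap with the untreated group.

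In wild mice Cyp7b1 fell in passaged cultures by 2.46 ± 0.35 on the log2 scale (edgeR, adjusted p = 0.0131, with the block 0.000822). Without a block the call was lost when replicate 1 (adjusted p = 0.162), 2 (0.0503) or 4 (0.0858) was left out, and with the block and no wild replicate 1 it held (adjusted p = 0.0121). The differences at 20 Gy (-2.43 ± 0.45, adjusted p = 0.0789) and 10 Gy (-1.76 ± 0.45, adjusted p = 0.177) did not pass without the block, the first unless replicate 3 was left out (adjusted p = 0.0328) or DESeq2 was used (adjusted p = 5.99e-07). With it Cyp7b1 fell by 2.49 ± 0.23 (adjusted p = 0.00331) and 1.85 ± 0.20 (adjusted p = 0.0035), also without the libraries labelled wild replicate 1 (adjusted p = 0.0299 and 0.0206). The summed adipocyte markers moved with Cyp7b1 in C56BL6 cultures at 12 d, from 14.6 to 45.3 CPM untreated to at most 3.45 CPM in the other groups. In wild mice they were 16, 0.0893, 0.169 and 25.3 CPM untreated, and replicates 2 and 3, with the low marker sums, had 19.7 and 14.6 CPM of Cyp7b1. Their part in the result was not tested.

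In A. cahirinus at 12 d Cyp7b1 had 6.97, 8.61, 11.3 and 7.84 CPM untreated, 7.38, 7.29, 7.85 and 7.92 CPM passaged, 7.32, 7.23, 9.62 and 7.90 CPM at 10 Gy and 5.23, 9.45, 5.51 and 6.52 CPM at 20 Gy. The groups overlapped and the difference at 20 Gy was -0.36 ± 0.23 (adjusted p = 0.264). The change at 20 Gy differed between A. cahirinus and wild mice by 2.06 ± 0.51 on the log2 scale, the fall being larger in wild mice (interaction, adjusted p = 0.0433, with the block 2.11 ± 0.33, adjusted p = 0.00193). Without a block the call was lost when only the libraries labelled wild replicate 1 were left out (1.96, adjusted p = 0.129) or when replicate 1 (adjusted p = 0.333), 2 (0.0714) or 4 (0.254) of both populations was, and with the block and no wild replicate 1 it held (2.05, adjusted p = 0.00868). At 24 h untreated wild libraries had 2.09, 4.15, 1.63 and 6.35 CPM and C56BL6 libraries 0.371, 0.286, 0.930 and 0.705 CPM. Cyp7b1 was 6.14-fold higher in the wild mice (log2 2.62 ± 0.56, adjusted p = 0.0349), a call that leaving out any 1 replicate number ended (adjusted p 0.0535 to 0.16).

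**Figure D4:**
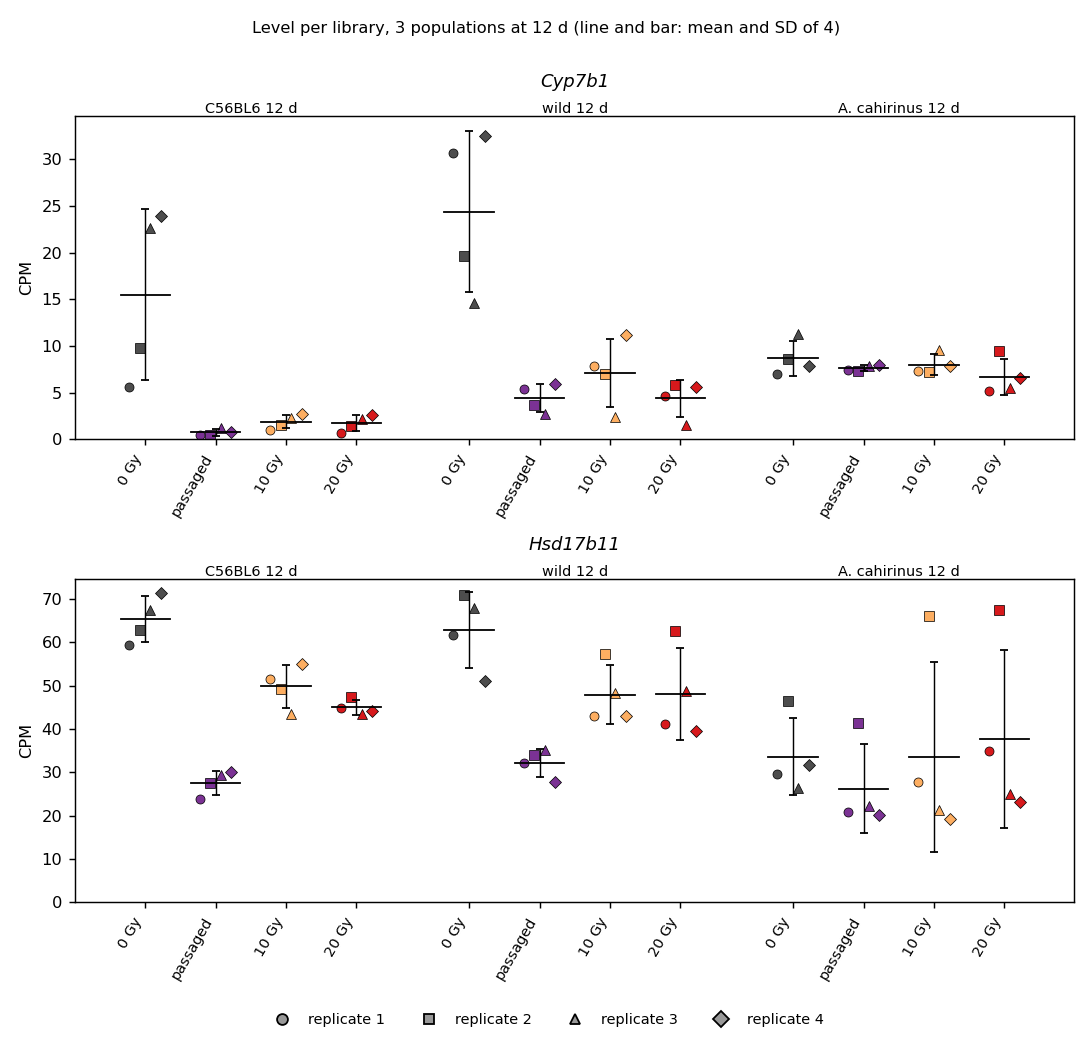
Cyp7b1 and Hsd17b11 at 12 d in the 3 populations, in CPM on a linear axis from 0, with points for libraries and the mean ± SD of 4 by group. Untreated mouse cultures are the highest group for both genes (Cyp7b1 15.5 CPM in C56BL6 and 24.4 CPM in wild mice), while the A. cahirinus groups overlap.

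Cyp1b1 hydroxylates oestrogens and xenobiotics and is a target of the aryl hydrocarbon receptor. C56BL6 cultures had 254, 393, 634 and 554 CPM untreated at 24 h, 230, 286, 383 and 358 CPM at 10 Gy and 231, 291, 413 and 389 CPM at 20 Gy. Each irradiated library was below the untreated one of its animal. Without the block neither dose passed (-0.54 ± 0.28, adjusted p = 0.712 at 10 Gy and -0.47 ± 0.29, adjusted p = 0.674 at 20 Gy), and with it Cyp1b1 fell by 0.49 ± 0.08 (adjusted p = 0.00318) and 0.42 ± 0.07 (adjusted p = 0.000686). At 12 d C56BL6 libraries had 357, 895, 1158 and 1276 CPM untreated, 234, 454, 615 and 552 CPM passaged, 216, 448, 468 and 484 CPM at 10 Gy and 264, 502, 555 and 520 CPM at 20 Gy, with fitted differences of -0.98 ± 0.42, -1.18 ± 0.40 and -0.99 ± 0.39. Wild libraries had 140 to 472 CPM over all groups, and no test of Cyp1b1 within wild mice passed.

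A. cahirinus had almost none of Cyp1b1: 0 to 0.535 CPM at 24 h, and at 12 d 0.372, 3.34, 0.069 and 5.33 CPM untreated, 0.155, 0.244, 0 and 0.0352 CPM passaged, 0.919, 1.37, 0.261 and 1.30 CPM at 10 Gy and 0.779, 1.16, 1.12 and 1.45 CPM at 20 Gy. The 20 Gy group lay above the passaged group without overlap, and inside the spread of the untreated group. The passaged libraries held 0 to 7 counts, and Cyp1b1 passed the filter on low counts only through the 20 Gy group, with 25 to 52 counts. It therefore had to differ, and the fitted difference of 3.36 ± 0.65 (log2, adjusted p = 0.00438, with the block 3.40, adjusted p = 0.0028) is a description, with no fold. Against untreated cultures the difference was -1 ± 0.95 (adjusted p = 0.453).

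Hsd3b7, the sterol 3β-hydroxysteroid dehydrogenase of bile acid synthesis, could be measured only in A. cahirinus. In mice its count was 0 in all 56 libraries, but 23 of its 2769 exon bases (0.831%) were free of the overlapping genes 9430064I24Rik and Gm49388, and reads in overlaps were not assigned, so these counts say nothing of its expression. A. cahirinus had 25.1, 32.1, 29.6 and 26.5 CPM untreated at 12 d, 18.2, 20.4, 21.2 and 20.5 CPM passaged, 25.4, 26.4, 22.4 and 21.9 CPM at 10 Gy and 23.3, 20.1, 20.7 and 21.6 CPM at 20 Gy. The untreated group was the highest and overlapped only with 10 Gy. Hsd3b7 fell in passaged cultures by 0.52 ± 0.10 (log2, SE, adjusted p = 0.00931) and at 20 Gy by 0.38 ± 0.10 (adjusted p = 0.0208). The first call was lost without replicate 3 (adjusted p = 0.0713) and the second without replicate 1 (0.0525), 3 (0.154) or 4 (0.0734), while both passed with the block (adjusted p = 0.000642 and 0.023).

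The number of members called was set against the share of all tested genes called in the same comparison. At 24 h no member passed in C56BL6 cultures at 20 Gy (0 of 9, with 0.0895% of all tested genes called) or 10 Gy (0 of 9, 0.007%), in wild mice at either dose (0 of 9, with 0% of all genes called and 856 and 603 genes at an unadjusted p under 0.05), or in A. cahirinus at 20 Gy (0 of 6, 3.59%) or 10 Gy (0 of 6, 3.73%). At an unadjusted p under 0.05 the members numbered 0 in C56BL6 cultures and A. cahirinus and 1 at each dose in wild mice, and DESeq2 called 0 in all 6 comparisons. With the block, 3 and 1 of 9 members passed in C56BL6 cultures (17.6% and 11.5% of all genes), 2 of 9 at 20 Gy in wild mice (12.5%), and 1 and 2 of 6 in A. cahirinus (24.1% and 27.6%). The wild count includes Akr1c18, which passed the filter mainly through the irradiated libraries. With 6 to 9 members tested, shares of this size are near the background.

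At 12 d in wild mice 0 of 9 members passed at 20 Gy (0.0694% of all genes) and at 10 Gy (0.264%), with 2 and 3 at an unadjusted p under 0.05 and 1 call by DESeq2 at each dose, Cyp7b1. The counts at an unadjusted p and by DESeq2 are given without the share of all genes, so they cannot be set against a background. With the block 3 of 9 passed at each dose (15.4% and 12.7% of all genes). In passaged cultures 2 of 9 fell (10.7% of all genes called, 5.2% lower), and with the block 7 of 9 passed (31.9%). Each of these 3 counts with the block includes Hsd3b6, which passed the filter through the treated or passaged group. At 20 Gy against passaged cultures 2 of 9 were higher (10.5% called, 4.39% higher), and with the block 5 of 9 passed (38%), both counts including Akr1c18, which passed it through the 20 Gy group. No member passed between 20 and 10 Gy (0% of all genes, 0 members at an unadjusted p under 0.05 and 0 by DESeq2). The median log2 difference over the 9 tested members was -0.17 at 20 Gy, -0.97 in passaged cultures and 0.61 at 20 Gy against passaged, beside -0.01, -0.03 and 0.02 over all tested genes. These medians include Hsd3b6 against untreated cultures and Akr1c18 at 20 Gy against passaged, which had to differ there. They are therefore a description.

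In A. cahirinus at 12 d 1 of 7 tested members rose and 2 fell at 20 Gy, where 31.8% of all genes were called (13.8% higher and 18.1% lower), and with the block 4 of 7 passed (49.2%). At 10 Gy 0 of 7 passed (2.87%), and with the block 3 (27.5%). There 2 had an unadjusted p under 0.05 and 1 was called by DESeq2, again without the share of all genes. In passaged cultures 1 of 6 fell (25.8% called, 13.6% lower), with the block 2 (49.5%). At 20 Gy against passaged cultures 2 of 7 were higher and 1 lower (42.5% called, 19.5% higher and 23% lower), with the block 5 (56%), where Cyp1b1 is among the higher ones and passed the filter only through the 20 Gy group. No member passed between 20 and 10 Gy (0.457%, 0 at an unadjusted p under 0.05 and 0 by DESeq2). The members' median was -0.36 at 20 Gy, -0.29 in passaged cultures and 0.55 at 20 Gy against passaged, beside 0.00, -0.01 and 0.01 over all tested genes. The median of 0.55 includes Cyp1b1, which had to differ there, and is a description. Hsd3b6, Akr1c18 and Akr1c14 did not pass the filter on low counts in A. cahirinus, so these counts cover only the members measured there. In the described C56BL6 comparisons at 12 d the share of all genes past the threshold was 26.5% at 20 Gy, 20.9% at 10 Gy and 49.6% in passaged cultures, and 41.6% at 20 Gy against passaged.

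**Figure D5:**
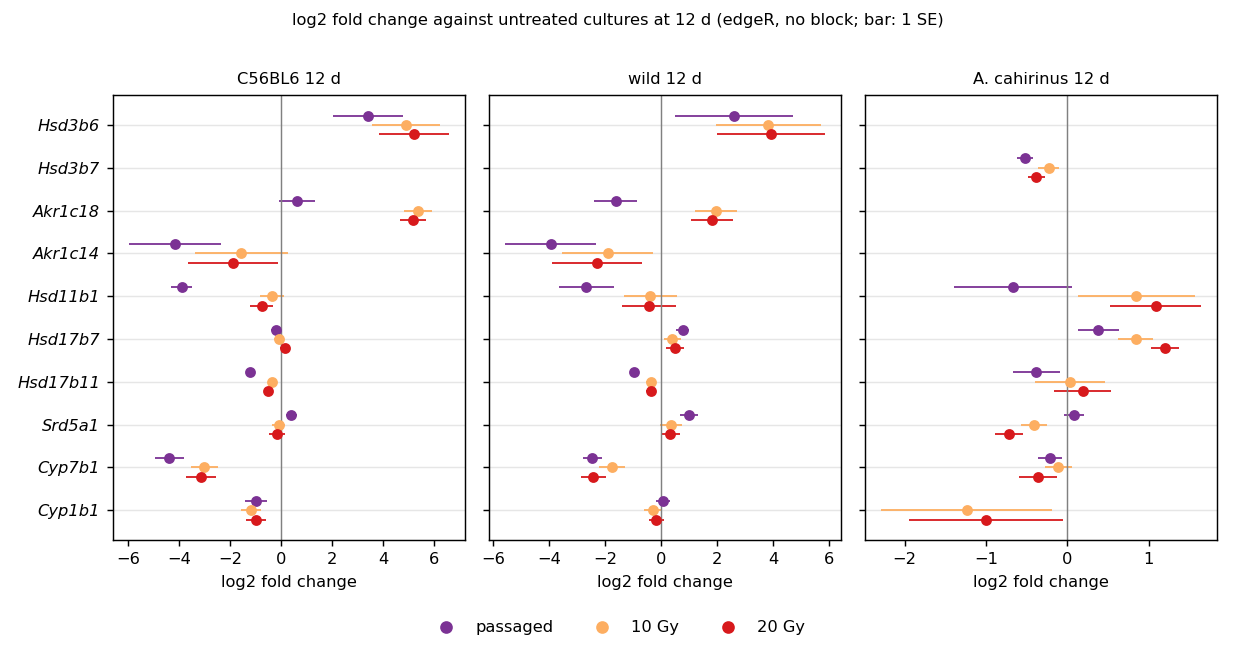
Log2 fold change of the members at 12 d against untreated cultures of the same population, for passaged cultures and for 10 and 20 Gy, with a bar of 1 SE; the 3 panels differ in the range of the x axis, and a missing point is a gene that did not pass the filter on low counts. Hsd3b6 and Akr1c18 reach 5.22 and 5.17 at 20 Gy in C56BL6 cultures, and Cyp7b1 -3.14, whereas in A. cahirinus the largest rise at 20 Gy is 1.20 for Hsd17b7.

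Between populations, 1 of 8 members passed in untreated wild against C56BL6 cultures at 24 h (Cyp7b1, with 5.7% of all genes called and 3.32% higher in wild mice). In the described comparison at 12 d, where 2.93% of all genes were called, Srd5a1 was -2.08 ± 0.31, Hsd17b7 -1.39 ± 0.27 and Cyp1b1 -1.39 ± 0.40 in wild relative to C56BL6 cultures. The change at 20 Gy at 24 h differed between wild and C56BL6 mice for 0 of 9 members and 0% of all genes (253 at an unadjusted p under 0.05), between A. cahirinus and C56BL6 mice for 0 of 5 (2.48%, with the block 1 against 19.4%, Hsd17b11 by 0.30 at an adjusted p of 0.0428) and between A. cahirinus and wild mice for 0 of 5 (0% of all genes, 559 at an unadjusted p under 0.05). DESeq2 called 0 members in each of these 3, and 0 members had an unadjusted p under 0.05. At 12 d 1 of 6 members passed between A. cahirinus and wild mice, Cyp7b1 (3.58% of all genes called, 1.17% with a higher change in A. cahirinus), and with the block Cyp7b1, Hsd11b1 and Srd5a1 (26.6%). Srd5a1 had a difference of -1.07 (adjusted p = 0.0312, without the block -1.05 ± 0.35, adjusted p = 0.111), which was lost without the libraries labelled wild replicate 1 (-0.94, adjusted p = 0.0888). In the described comparison of wild with C56BL6 mice at 12 d the change at 20 Gy was lower in wild mice by 3.36 ± 0.92 for Akr1c18 and by 1.34 ± 2.14 for Hsd3b6.

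The other genes of the pathway were counted from lists chosen by function. Shares of all genes given with the block count both directions together. Of 18 cholesterol synthesis and uptake genes, the partners of Hsd17b7, 3 rose and 0 fell in passaged wild cultures, where 10.7% of all genes were called, with a median log2 difference of 0.49 against -0.03 over all genes. With the block 11 rose and 1 fell (31.9% of all genes called), the latter being Ebp (-0.51, adjusted p = 0.00728). Among them was Lss, which closes the sterol rings (log2 0.71 ± 0.12, adjusted p = 0.016). At 20 Gy against passaged wild cultures 0 rose and 4 fell (10.5% of all genes called), with a median of -0.75 against 0.02, and with the block 13 fell (38% called in either direction). In A. cahirinus at 20 Gy against untreated cultures 4 rose and 2 fell (31.8% of all genes called), with a median of 0.19 against 0.00. There Dhcr7 fell (15.8, 15.2, 14.2 and 16.7 CPM against 34.1, 27.8, 35.8 and 29.3 CPM, -1.01 ± 0.11, adjusted p = 0.000481) and Sc5d rose (0.80 ± 0.16, adjusted p = 0.00711).

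Among 15 genes of steroid hormone synthesis, Star, the carrier of cholesterol into mitochondria, was higher at 20 Gy than in passaged wild cultures (4.09, 7.89, 2.23 and 9.5 CPM against 1.43, 1.67, 1 and 1.29 CPM, 2.16 ± 0.46, adjusted p = 0.0253). Tspo was too (0.59 ± 0.16, adjusted p = 0.0487), 2 of 7 tested genes of the list beside 4.39% of all genes higher and 10.5% called in either direction. Tspo fell in passaged against untreated wild cultures (-0.90 ± 0.15, adjusted p = 0.0159). In A. cahirinus 2 of 6 tested genes of this list fell at 20 Gy (18.1% of all genes were lower), Fdxr (-0.85 ± 0.23, adjusted p = 0.0259) and Tspo (-0.53 ± 0.12, adjusted p = 0.0103), with a list median of -0.16. In the oxysterol and bile acid list 3 of 6 genes were higher at 20 Gy than in passaged A. cahirinus cultures, led by Cyp39a1 (4.05, 9.82, 4.28 and 2.54 CPM against 0.618, 1.36, 1.12 and 0.458 CPM, 2.56 ± 0.51, adjusted p = 0.00472) and Cyp27a1 (1.74 ± 0.38, adjusted p = 0.0072), both sterol hydroxylases. Of all genes 19.5% were higher there, and the list's median was 0.67 against 0.01 over all genes. In wild mice 0 of 7 genes of this list were higher at 20 Gy than in passaged cultures without the block and 6 with it, where 38% of all genes passed.

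Among interconverting enzymes Hsd17b12 rose in passaged wild cultures (117, 122, 112 and 125 CPM against 71.6, 62.8, 70.7 and 74.6 CPM, 0.77 ± 0.09, adjusted p = 0.0115). It also rose in A. cahirinus at 20 Gy (0.95 ± 0.13, adjusted p = 0.00135) and 10 Gy (0.71 ± 0.13, adjusted p = 0.04). At 20 Gy 4 of 12 tested genes of this list fell in A. cahirinus, among them Hsd17b10 (-1.12 ± 0.15, adjusted p = 0.0012), and 1 rose (18.1% and 13.8% of all genes), with a median of -0.04, and with the block 5 fell and 3 rose (49.2% of all genes called). H6pd, which supplies the cofactor of Hsd11b1, was lower at 20 Gy than in passaged A. cahirinus cultures (75.9, 57.2, 105 and 117 CPM against 200, 159, 202 and 250 CPM, -1.16 ± 0.23, adjusted p = 0.00517).

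Of the steroid receptors, 2 of 7 rose in A. cahirinus at 20 Gy against untreated cultures (13.8% of all genes rose), with the block 4 (49.2% called), with a median of 0.64, among them the oestrogen receptor Esr1 (1.9, 1.74, 2.4 and 1.87 CPM against 0.846, 0.85, 0.966 and 0.432 CPM, 1.38 ± 0.28, adjusted p = 0.00726). Against passaged cultures 3 of 8 were higher (19.5% of all genes were), with the block 5 (56% called), among them Esr1 (2.14 ± 0.32, adjusted p = 0.00135). That count includes the mineralocorticoid receptor Nr3c2, which passed the filter only through the 20 Gy group (0.561, 0.642, 0.878 and 0.725 CPM against 0.116, 0.174, 0 and 0.106 CPM) and so had to differ. At 12 d no receptor passed in wild mice without the block. With it 2 of 6 fell in passaged cultures (31.9% of all genes called) and 2 were higher at 20 Gy than in passaged ones (38% called), which is near the background. Among glucocorticoid-responsive genes Fkbp5 fell in A. cahirinus at 24 h, by 0.52 ± 0.09 at 20 Gy (adjusted p = 0.0174) and 0.52 ± 0.08 at 10 Gy (adjusted p = 0.0133), the single called gene of 9 tested in each without the block, beside 3.59% and 3.73% of all genes. With it Dusp1 and Sgk1 rose as well, by 0.33 and 0.32 at 20 Gy (adjusted p = 0.00133 and 0.0053) and by 0.33 and 0.28 at 10 Gy (adjusted p = 0.000234 and 0.00468, 24.1% and 27.6% of all genes called). In the aryl hydrocarbon receptor list 3 of 5 were higher at 20 Gy than in passaged A. cahirinus cultures (19.5% of all genes were), and with the block 4 were higher and 1 lower (56% called), with a median of 0.79, among them Ahr (1.61 ± 0.55, adjusted p = 0.0429) and Nqo1 (1.14 ± 0.22, adjusted p = 0.00441). Akr1c19, the 1 other AKR1C gene tested in A. cahirinus, fell at 20 Gy (1.99, 2.72, 2.16 and 2.71 CPM against 4.67, 4.45, 5.07 and 4.9 CPM, -0.97 ± 0.16, adjusted p = 0.00296). Without the block no gene of any list passed in C56BL6 cultures or wild mice at 24 h, nor in wild mice at 12 d at 20 Gy against untreated cultures. At most 4 genes of a list had an unadjusted p under 0.05 there, a count given without the share of all genes. With the block 6 of 9 glucocorticoid-responsive genes fell at 20 Gy and 5 at 10 Gy in C56BL6 cultures at 24 h (17.6% and 11.5% of all genes called), among them Cebpd (-0.89 at 20 Gy, adjusted p = 8.61e-05). At 24 h and 20 Gy 7 of 18 cholesterol genes fell in wild mice and Nqo1 rose (1.35, adjusted p = 0.000193), where 12.5% of all genes passed. At 12 d and 20 Gy 0 to 3 genes of a list passed with the block in wild mice (15.4% of all genes).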

How the data were processed

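Polyadenylated RNA of cultured skin fibroblasts was sequenced in 84 libraries of 21 groups of 4. The authors deposited read counts per gene, not normalized, made with featureCounts 2.0.3, per the file headers, after Trim Galore and HISAT2, per the submitters' processing notes. Mouse reads were counted on GRCm39 with Ensembl gene models and A. cahirinus reads on an assembly named AcoCah2, per the file headers. Per those headers counting used no strand, and reads in several genes or places were left out, so genes that overlap others lose counts. The gene lengths deposited by the authors beside the counts, other values in base pairs, served for RPKM only. All count columns were matched to libraries by name (0 unused), and 56236 of 56980 mouse identifiers had a symbol. Differences between species were computed for 18109 symbols that occur once in both tables, and for genes that passed the filter within each population.

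The members and all gene lists were chosen with earlier results of these data known. The main test was that of edgeR 4.0.16 (R 4.3.3): filterByExpr, TMM scaling, the quasi-likelihood test and Benjamini-Hochberg adjustment over all tested genes at 0.05, without a block, each fit holding only the groups compared. CPM and RPKM use TMM-scaled totals. Of 29 comparisons 21 were tested, and 8 that hold C56BL6 libraries of 12 d were described. The comparison of 24 h with 12 d was left out, since each time is 1 batch. All members are named, with at most 2 genes per list, direction and comparison, those with the largest change among the called (some are not reported here), and the 5 genes most correlated with Hsd3b6 and Akr1c18 (log2 CPM, prior count 2).

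Replicate numbers are animal codes in the library names, so they pair libraries within a population and time. Libraries with the same number deviated together from their groups, with r of 0.42 to 0.98 over 21 comparisons. A fit with the replicate number as a block was therefore made beside the one without. Pairs of replicates exceeded sampling noise 7.95-fold to 573-fold in variance over 126 pairs, so they were more than repeated sequencing of 1 library. Separate cultures of 1 animal can exceed it too, so this does not show that replicates are different animals. Wild replicates 1 and 4 at 12 d exceeded it 21.6-fold to 36.6-fold. Each library was taken as 1 replicate. The other alternatives were RLE size factors, no expression filter, DESeq2 1.42.0, one fit for all groups of a population at a time, plain library totals for levels, and leaving out each replicate number. Leaving out the 12 d libraries labelled wild replicate 1, with and without the block, was added after seeing the data. The scripts were tested on simulated counts. Promoter windows came from RefSeq on GRCm38.p6 and were used for sequence only. Protein sequences were not used here.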

Additional observations from a re-analysis of the deposited data

Results flagged for a closer look

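In a group of 4 libraries, a value was picked out when its gap to the nearest other one exceeded Dixon's 95% critical share of the group's range. Chance picks about 1 in 20 such groups, and 27 of the 168 groups examined (members with at least 20 counts in a library) were picked.

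Most of them repeat the same few animals. Wild replicate 3 stood above the others for Hsd3b6, with 52.7 CPM at 12 d and 10 Gy, 58.3 CPM at 20 Gy, 27.7 CPM passaged, 4.69 CPM untreated, and 64 and 57.1 CPM at 24 h after 10 and 20 Gy. C56BL6 replicate 1 stood above for Akr1c14, with 419 CPM untreated, 18.4 CPM passaged, 132 CPM at 10 Gy and 100.8 CPM at 20 Gy at 12 d, and 18.9, 8.85 and 7.7 CPM at 24 h untreated and after 10 and 20 Gy. The same animal was high for Srd5a1 (3.79 CPM at 12 d and 20 Gy, 4.8 CPM untreated at 24 h) and low for Hsd17b7 (38.3 CPM at 12 d and 20 Gy) and Cyp1b1 (216 CPM at 12 d and 10 Gy). Wild replicate 2 was high for Hsd11b1 (67.2 CPM at 10 Gy, 65.5 CPM at 20 Gy and 13.9 CPM passaged at 12 d, 18.2 CPM untreated at 24 h), for Akr1c18 (2.16 CPM at 24 h and 10 Gy) and for Hsd17b11 (40.2 CPM at 24 h and 20 Gy). A. cahirinus replicate 2 was high for Hsd11b1 (6.97 CPM, untreated at 12 d) and Hsd17b11 (41.5 CPM, passaged). The remaining single values were 15.1 CPM of Akr1c14 in wild replicate 4 untreated at 24 h and 0.897 CPM of Cyp7b1 in C56BL6 replicate 4 at 24 h and 20 Gy.

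For Cyp7b1 the change at 20 Gy at 12 d differed between A. cahirinus and wild mice by 2.06 (log2, edgeR interaction, adjusted p = 0.0433), a call lost without the libraries labelled wild replicate 1 (1.96, adjusted p = 0.129). For Hsd11b1 at 12 d each irradiated library was below the untreated one of its number in wild mice and above it in A. cahirinus, with log2 differences of -0.44 and 1.09 at 20 Gy and -0.39 and 0.85 at 10 Gy. The difference between these changes had an adjusted p of 0.536 at 20 Gy without the block and 0.00464 with it, and it was not tested at 10 Gy.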

How the results depend on the processing

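With RLE size factors every count of called members and every named member kept its direction and its side of the threshold. The replicate block, which uses the pairing, raised the number of members called: to 3 at 20 Gy and 1 at 10 Gy in C56BL6 cultures at 24 h, 2 at 20 Gy in wild mice at 24 h, 3 at 20 Gy, 3 at 10 Gy, 7 in passaged cultures and 5 at 20 Gy against passaged in wild mice at 12 d, 1 at 20 Gy and 2 at 10 Gy in A. cahirinus at 24 h, 4 at 20 Gy, 3 at 10 Gy, 2 in passaged cultures and 5 at 20 Gy against passaged in A. cahirinus at 12 d, and for the change at 20 Gy 1 between A. cahirinus and C56BL6 mice at 24 h and 3 between A. cahirinus and wild mice at 12 d. The block ended none of the calls made without it, and the calls it added are given beside the members in the text. With the block and no library labelled wild replicate 1 the wild counts at 12 d were 2, 2, 5 and 5 in the order above, and 2 for A. cahirinus against wild mice, which was 0 when only those libraries were left out. The log2 difference of Hsd3b6 between 20 and 10 Gy in wild mice at 12 d, 0.07, turned to -0.09 with the block and -0.10 with the block and no wild replicate 1.

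DESeq2 called 1 member at 20 Gy, 1 at 10 Gy and 5 in passaged cultures in wild mice at 12 d, 1 at 10 Gy and 2 in passaged cultures in A. cahirinus at 12 d, and 2 in wild against C56BL6 cultures at 24 h. With all groups in one fit the count was 1 at 20 Gy in wild mice, and 1 at 10 Gy and 2 in passaged cultures in A. cahirinus, all at 12 d. Without the expression filter it was 1 at 20 Gy against passaged in wild mice, 2 in passaged A. cahirinus cultures and 0 for A. cahirinus against wild mice at 12 d. Shares of all genes called were computed only for the main fit and the fit with the block. Counts of members under the other settings, and with a replicate number left out, therefore have no background beside them. On plain library totals the mean of Hsd17b11 in C56BL6 cultures at 12 d and 20 Gy was 49 CPM, and that of Hsd17b7 41.3 CPM at 10 Gy and 47.7 CPM at 20 Gy. The cause of these shifts was not tested.

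Leaving out each replicate number in turn (fewer libraries per fit) gave 0 to 1 members at 20 Gy, 0 to 3 in passaged cultures and 0 to 2 at 20 Gy against passaged in wild mice at 12 d, 1 to 5 at 20 Gy, 0 to 1 at 10 Gy, 0 to 2 in passaged cultures and 1 to 6 at 20 Gy against passaged in A. cahirinus at 12 d, 0 in wild against C56BL6 cultures, and 0 to 1 for A. cahirinus against wild mice at 12 d. Differences that were not called turned sign: Hsd3b6 in wild mice ranged from -0.21 to 0.09 between 20 and 10 Gy at 12 d, from -0.12 to 0.78 at 20 Gy and from -0.02 to 0.93 at 10 Gy at 24 h, all negative without replicate 3, and Akr1c18 in C56BL6 cultures at 24 h and 10 Gy from -0.06 to 0.51. In the described passaged C56BL6 cultures Akr1c14 ranged from -4.31 to -1.79, the latter without replicate 1, and Akr1c18 from -0.11 to 1.05. Where counts were a few per library, as for Akr1c18 at 24 h or Cyp1b1 in A. cahirinus, depth limits what could be detected.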
